A study of Homo sapiens with 23 samples.

Results

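Binding of the demethylase LSD1, its neuronal isoform LSD1+8a and supervillin (SVIL) was examined around 8 genes that restrain or report MAP kinase signalling. These are the phosphatases DUSP4 and DUSP6, the Sprouty proteins SPRY2 and SPRY4, the related SPRED1 and SPRED2, and the transcription factors ETV4 and ETV5. A fixed hg19 window of 110 to 220 kb was placed around each gene, 1.19 Mb in all, and every deposited peak that overlapped a window by at least 1 bp was counted. Of the 52708 peaks in 5 lists, 49 met this rule, and where peaks of several lists overlapped they formed 27 separate regions. The windows are fixed positions, but they and the genes were chosen with earlier results of these data known. A peak in a window was not assigned to the gene's promoter, since no annotation of hg19 was used here.

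All libraries came from SH-SY5Y, a line derived from human neuroblastoma, the childhood tumour of sympathetic precursors, which can be matured toward neurons with retinoic acid and brain-derived neurotrophic factor (BDNF). Per the labels' protocols, retinoic acid was given at 10 µM for 4 days, followed by BDNF at 50 ng/mL without serum for 3 days, and day 0 and day 3 count from the start of BDNF. The lists are SVIL, LSD1+8a and LSD1 in cells with a control shRNA at day 3, LSD1 in cells with an shRNA against LSD1+8a at day 0, and LSD1 in cells with a control shRNA at day 0. Among the 23 samples, 14 are ChIP and 9 are inputs, and 9 of the ChIP samples were not analysed here. Each list comes from 1 library of a bulk culture, so no difference between conditions could be tested. The intervals below are exact 95% intervals (Clopper-Pearson for shares, Poisson for counts) and cover counting error only.

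BDNF binds the receptor TrkB and switches on the Ras, RAF, MEK and ERK kinase cascade. Active ERK induces genes whose products turn the cascade down again, so the level of these genes is widely read as a record of ERK activity. Dual-specificity phosphatases strip the phosphates from ERK itself. Sprouty and SPRED proteins act higher up, between the receptor and RAF. ETV4 and ETV5 belong to the PEA3 group of ETS factors, which are induced by growth factor signalling and carry part of its transcriptional output. LSD1 removes methyl groups from histone H3, and LSD1+8a is a form with an extra small exon that neurons make.

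The lists held 1452 peaks for SVIL, 3378 for LSD1+8a, 20748 for LSD1 at day 3, 10248 for LSD1 in knockdown cells and 16882 for LSD1 in the control cells of day 0. Neither the reads per library nor the input of each list is known here, so the absence of a peak and a lower sequencing depth cannot be told apart. By title, the only input of control cells at day 3 is named for the histone mark H3K9me2. Control and knockdown cells at day 0 also have inputs without that name. Whether the day 3 and day 0 lists differ in the kind of input used is therefore not known. The titles of both day 0 libraries end in an S and a number, and those of the 3 of day 3 do not. The labels do not say what this suffix means, and other day 3 samples of the series carry one. If it marks a difference in handling, day and handling cannot be told apart in these lists. Recognition of LSD1+8a by the LSD1 antibody was not tested. Tags, scores and fold enrichments are the authors' values for each peak and were used to describe and rank peaks within a list. Over the whole lists, the median LSD1 fold was 17.05 at day 3, 9.13 in knockdown cells and 9.3 in control cells at day 0. The median tags were 50, 28 and 26. Higher folds and tags at day 3 are thus a trait of the whole list and are not read as stronger binding at a gene.

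LSD1 at day 3 was listed in all 8 windows, with 22 peaks (13.8 to 33.3). Consecutive stretches of 148.75 kb, the mean window width, served as background across the genome, and 48.8% of them held an LSD1 peak at day 3. LSD1 was listed in 5 of the 8 windows in knockdown cells, with 9 peaks (4.12 to 17.1), and in the same 5 windows in control cells at day 0, with 15 peaks (8.40 to 24.7). The background was 31.6% for knockdown cells and 43.4% for control cells at day 0. LSD1+8a was listed in 2 windows, at SPRY2 and ETV5, against a background of 13.8%. SVIL was listed in the ETV5 window alone, against 6.06%. The interval for 8 of 8 windows runs from 63.1% upward, for 5 of 8 from 24.5% to 91.5%, for 2 of 8 from 3.19% to 65.1% and for 1 of 8 from 0.316% to 52.7%. The background stretches include gene-free and unalignable sequence, whereas every window holds a gene, and the part this plays was not tested.

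**Figure D1:**
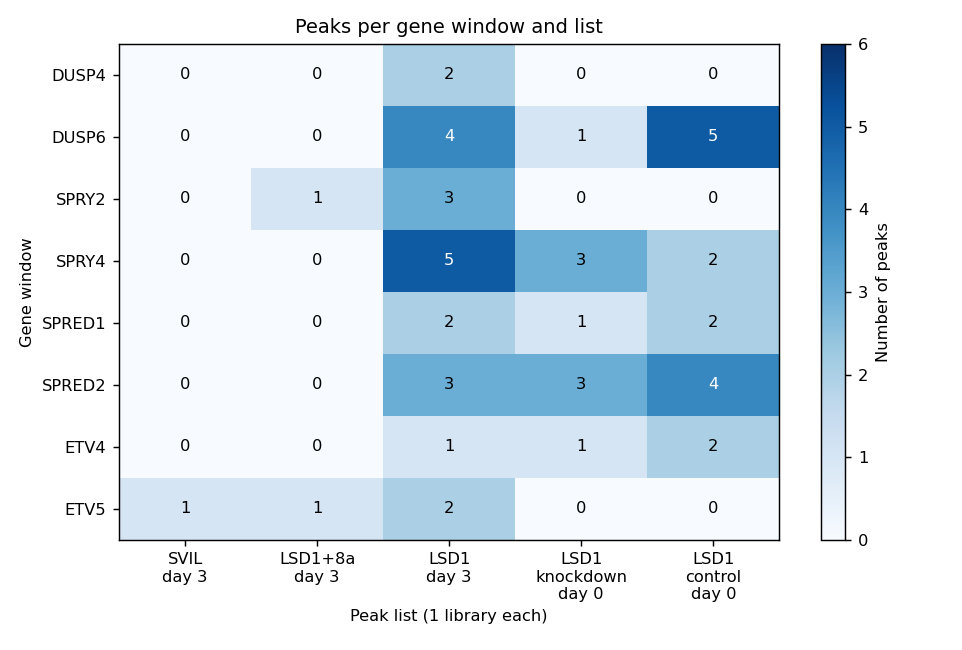
Number of peaks in each gene window (rows) in each peak list (columns, 1 library each), with darker blue for more peaks. LSD1 at day 3 has 1 to 5 peaks in every window, while the DUSP4, SPRY2 and ETV5 windows have 0 in both day 0 columns.

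The windows fell into 2 sets by their LSD1 peaks. DUSP6, SPRY4, SPRED1, SPRED2 and ETV4 had LSD1 in all 3 LSD1 lists, which 22.4% of the background stretches also had. DUSP4, SPRY2 and ETV5 had LSD1 at day 3 and in neither day 0 list, which 11.8% of the background stretches had. Among background stretches with a day 3 LSD1 peak, 24.2% lacked any at day 0. Each pair of related genes apart from the SPRED genes was split between the sets, as DUSP6 from DUSP4, SPRY4 from SPRY2 and ETV4 from ETV5. The placements of SPRY2 and ETV4 depend on the settings, which were applied to these sets after seeing the data. With windows wider by 20 kb on either side, SPRY2 also had LSD1 at day 0 and the second set was DUSP4 and ETV5. ETV4 left the first set, which then had 4 windows, with windows narrower by 20 kb on either side, with the upper 50% of each list by score, or with the lowest SVIL score (71.72) as the threshold of every list. The other 6 genes kept their set under all 6 settings tried.

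DUSP6 encodes a cytoplasmic phosphatase that acts on ERK with high selectivity. Its window on chromosome 12 held 10 peaks in 4 regions, all of LSD1. The region from 89745397 to 89748976 was in all 3 LSD1 lists. It had 120 tags at a fold enrichment of 13.07 at day 3, ranking 5201 by score in that list, and 73 tags at 23.19 in knockdown cells, ranking 401. In control cells at day 0 it was split into 3 peaks of 65, 20 and 24 tags at folds of 16.49, 5.92 and 5.43, the first of which ranked 938. This was the highest ranking window peak of both day 0 lists. The summit in knockdown cells lay 49 bp from that of the strongest control peak, and the day 3 summit lay 97 bp from it.

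The other DUSP6 regions were absent from the knockdown list. The region from 89739437 to 89741686 had 92 tags at a fold of 14.2 at day 3 and 37 tags at 5.83 in control cells at day 0, with summits 43 bp apart. About 27.1 kb above the central region, the region from 89776070 to 89777712 had 107 tags at a fold of 32.67 at day 3 and 20 tags at 11.13 in control cells at day 0. At rank 1918, it was the highest ranking of the 22 window peaks of day 3. A further day 3 peak of 59 tags (89777798 to 89779263) began 85 bp beyond it. All 5 control day 0 peaks at DUSP6 were overlapped by day 3 peaks, and 1 of the 5 by the knockdown peak. In RefSeq's gene order (GRCh38.p14), POC1B follows DUSP6, and which gene the upper regions lie in was not determined.

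DUSP4 encodes a nuclear phosphatase that acts on ERK and, in other settings, on JNK and p38. Its window on chromosome 8 held 2 LSD1 peaks, both at day 3. They had 43 tags at a fold of 18.18 (29215092 to 29216011) and 105 tags at 11.36 (29230465 to 29232441). The peaks lay 14.5 kb apart and ranked 7140 and 9047 of 20748, in the upper 50% of the list. No other list had a peak in this window.

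SPRY4 encodes a Sprouty protein that dampens signals from growth factor receptors to Ras. Its window on chromosome 5 held 10 peaks in 6 regions, the most regions of the 8 windows, and all were of LSD1. At day 3 it held 5 peaks, the most of the 8 windows, and 3.22% of the background stretches reached this number. That share is for any 1 stretch of 148.75 kb, not for the highest of 8 windows. The region from 141704040 to 141705378 was in all 3 LSD1 lists, with 37 tags at a fold of 13.99 at day 3, 34 tags at 11.05 in knockdown cells and 48 tags at 7.99 in control cells at day 0. Its rank by score was 20177 of 20748 at day 3, close to the end of that list, 2135 of 10248 in knockdown cells and 6080 of 16882 in control cells at day 0. The summits of the 3 lists lay 26 to 85 bp apart.

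Toward the lower edge of the SPRY4 window, the region from 141669361 to 141670991 had 98 tags at a fold of 23.25 at day 3 and 45 tags at 11.36 in control cells at day 0, and was absent from the knockdown list. Toward the upper edge, knockdown cells had 2 peaks that control cells of the same day lacked. The first (141736187 to 141736728) had 16 tags at a fold of 8.78 and was in no other list. The second lay in the region from 141742115 to 141742894, with 38 tags at a fold of 28.41 at day 3 and 19 tags at 11.31 in knockdown cells. These were the 2 of 9 knockdown peaks in the windows that no control peak overlapped. Further day 3 peaks, of 40 tags (141694993 to 141696096) and 30 tags (141740068 to 141740921), were in no other list.

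SPRY2 encodes another Sprouty protein, induced by growth factors in many cell types. Its window on chromosome 13 held 4 peaks, all of day 3, and the day 0 lists are of LSD1 only. LSD1+8a had a peak (80910923 to 80911895) with 40 tags at a fold of 21.96 and rank 395 of 3378. An LSD1 peak overlapped it (80910565 to 80911436) with 24 tags at 16.24 and rank 18503 of 20748. Their summits lay 603 bp apart, against 4 bp at ETV5, the only other window with both. LSD1 had 2 more peaks at day 3, with 50 tags at a fold of 18.58 (80915191 to 80916490) and 53 tags at 12.18 (80916532 to 80917648), separated by 41 bp. Just below the window, 733 bp from its edge, LSD1 had a day 3 peak of 100 tags at a fold of 40.91 (80857752 to 80859267), and in control cells at day 0 a peak of 17 tags at 11.42 (80858346 to 80858989). With windows wider by 20 kb on either side, control cells at day 0 had LSD1 at 6 of the 8 genes.

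SPRED1 and SPRED2 encode proteins of the Sprouty-related family. SPRED1 brings neurofibromin, an inactivator of Ras, to the membrane. The SPRED1 window on chromosome 15 held 5 peaks in 3 regions, all of LSD1. The region from 38543160 to 38544718 was in all 3 LSD1 lists, with 80 tags at a fold of 14.99 at day 3, 44 tags at 19.79 in knockdown cells and 52 tags at 9.83 in control cells at day 0. It ranked 5482 at day 3, 847 in knockdown cells and 1660 in control cells at day 0, which was second among the window peaks in both day 0 lists. Its summits lay 32 to 85 bp apart. The remaining peaks were weak, with 29 tags and rank 19234 at day 3 (38545264 to 38546187) and 13 tags and rank 15336 in control cells at day 0 (38519049 to 38519627).

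The SPRED2 window on chromosome 2 held 10 peaks in 5 regions, again all of LSD1. Of these regions, 2 were in all 3 LSD1 lists. The region from 65576643 to 65577731 had 85 tags at a fold of 33.38 at day 3, where the list median was 17.05. This was the highest fold of any window peak. The same region had 17 tags at 9.62 in knockdown cells and 20 tags at 9.77 in control cells at day 0, where the list medians were 9.13 and 9.3. The region from 65662938 to 65664295 had 33 tags at 9.47 at day 3, 29 tags at 8.54 in knockdown cells and 20 tags at 6.83 in control cells at day 0. By rank within their lists these regions were placed differently, with the first at 2236 and the second at 18780 at day 3, and the first at 7442 and the second at 2801 in knockdown cells. In control cells at day 0 the first ranked 8360 and the second 14128.

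Another SPRED2 region (65659453 to 65660379) was in the day 0 lists only, with 24 tags at a fold of 14.05 in knockdown cells and 27 tags at 11.3 in control cells. All 3 knockdown peaks in this window were overlapped by control peaks, as were 3 of the 4 control peaks by knockdown peaks. The control peak without an overlap in any list had 21 tags (65578125 to 65578848). A day 3 peak of 29 tags (65691547 to 65692409) was also in no other list.

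ETV4 encodes a PEA3 group factor, and its window on chromosome 17 held 4 LSD1 peaks in 2 regions 61.2 kb apart. The lower region (41560824 to 41561720) had 44 tags at a fold of 8.78 in knockdown cells and 27 tags at 7.43 in control cells at day 0, with summits 29 bp apart, and was absent at day 3. The upper region (41622886 to 41623958) had 29 tags at 18.13 at day 3 and 29 tags at 10.17 in control cells at day 0, and was absent from the knockdown list. Its score at day 3 was 58.22, at rank 17816 of 20748, and its rank was 5722 in control cells at day 0. Of the ETV4 regions, neither was in all 3 LSD1 lists. In RefSeq's gene order (GRCh38.p14), DHX8, which encodes an RNA helicase of splicing, overlaps ETV4, and which of these genes the lower region lies at was not determined.

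ETV5 encodes a PEA3 group factor that is closely related to ETV4, and its window on chromosome 3 was the only one of the 8 with all 3 proteins. The region from 185814430 to 185816470 had 15 SVIL tags at a fold of 23.42, 35 LSD1+8a tags at 14.08 and 106 LSD1 tags at 21.92, all at day 3. For LSD1 it ranked 2401 of 20748, while the LSD1+8a peak ranked 2687 of 3378 and the SVIL peak 1209 of 1452, toward the ends of their lists. The LSD1 and LSD1+8a summits lay 4 bp apart, and the SVIL summit lay 303 bp from the LSD1 summit. The SVIL peak was 296 bp long and lay inside both of the others. A second LSD1 peak of day 3 (185772020 to 185773398) had 58 tags at a fold of 10.1, and neither region was in a day 0 list. Both day 0 lists are of LSD1, so LSD1+8a and SVIL at day 0 were not assessed.

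**Figure D2:**
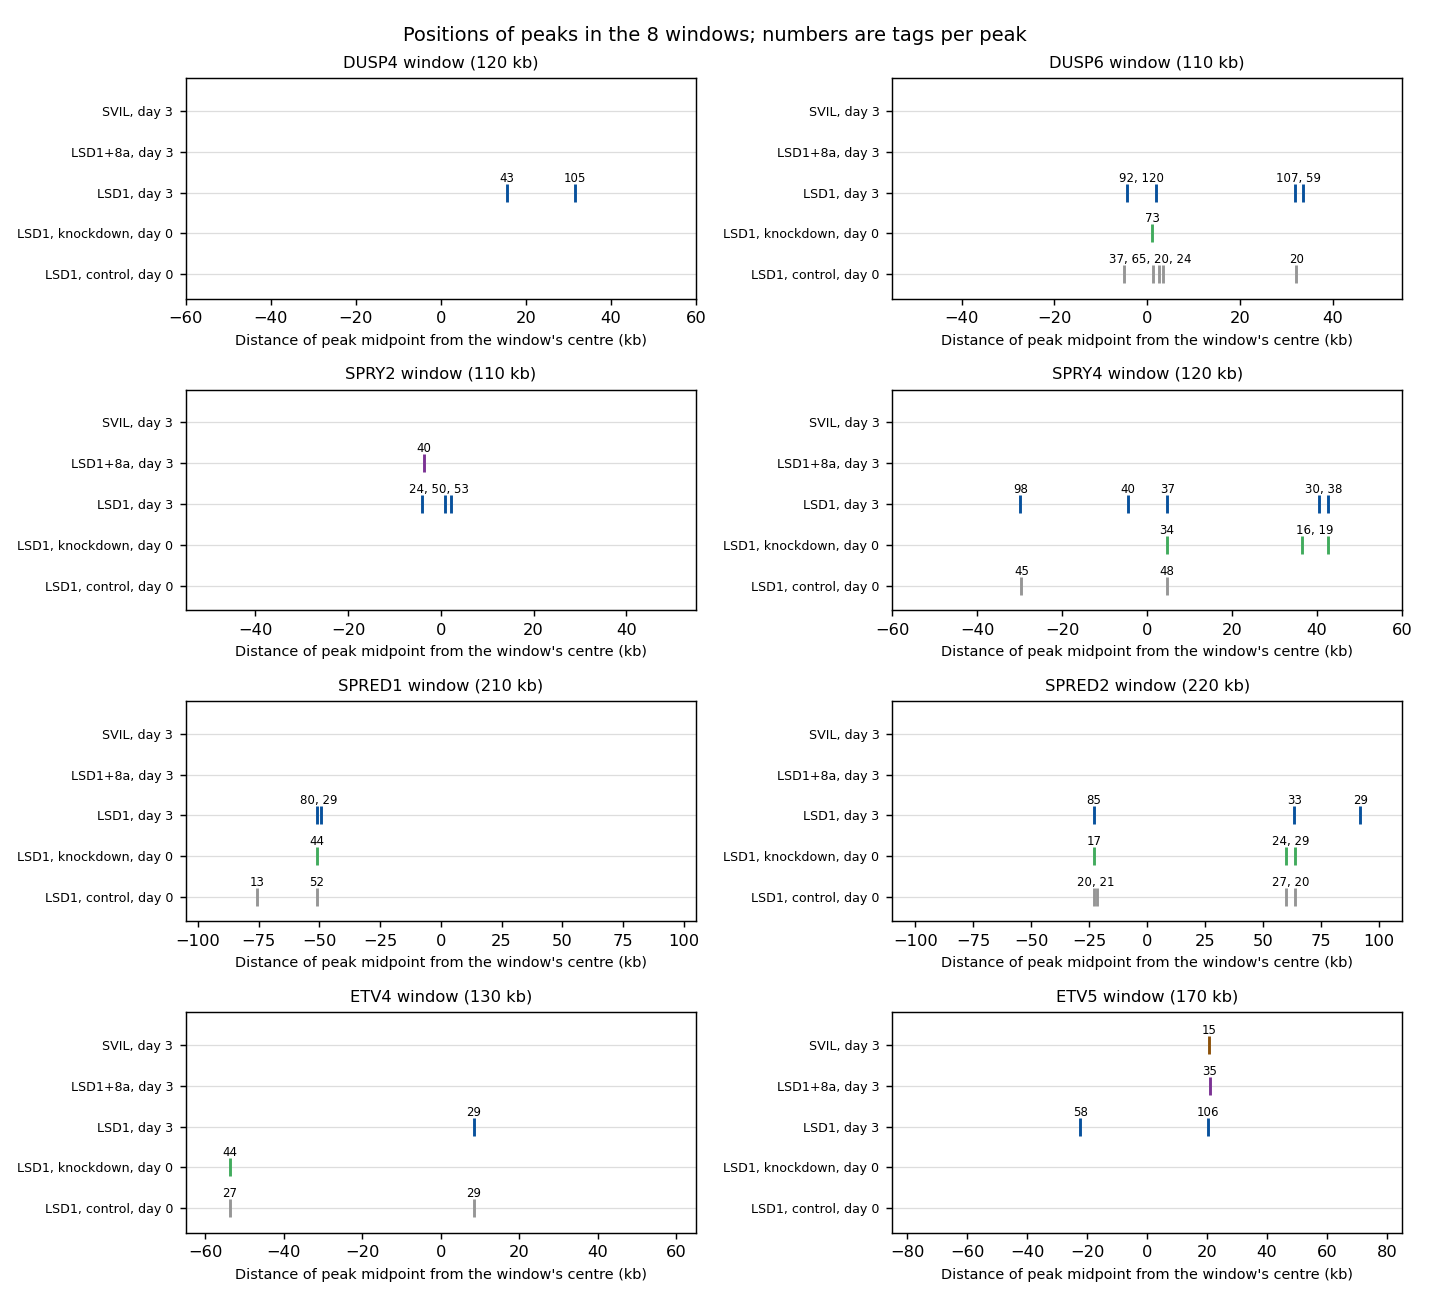
Positions of all peaks in the 8 windows, as the distance of the peak midpoint from the window's centre in kb, with a row for each list and the tags per peak printed above the marks from left to right. Marks of at least 2 LSD1 lists line up at 12 positions, 3 each at DUSP6, SPRY4 and SPRED2, 2 at ETV4 and 1 at SPRED1, and all 3 proteins line up in the ETV5 window.

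Day 3 and day 0 of BDNF treatment were compared for LSD1 in control cells. The windows held 22 peaks at day 3 and 15 at day 0, so day 3 had 59.5% (42.1 to 75.2) of the peaks of both days, against 55.1% over the whole lists. Of the day 3 peaks, 9 of 22 (40.9%, 20.7 to 63.6) were overlapped by a day 0 peak, and the whole day 3 list had 40.1%. Of the day 0 peaks, 11 of 15 (73.3%, 44.9 to 92.2) were overlapped by a day 3 peak, and the whole day 0 list had 50.1%. Among the 11, 3 peaks at DUSP6 lay in 1 region under the same day 3 peak, and the interval counts them as separate. Each whole-list share lay within the interval for the windows. By gene, all day 0 peaks at DUSP6 (5) and SPRY4 (2) were overlapped at day 3, against 2 of 4 at SPRED2, 1 of 2 at SPRED1 and 1 of 2 at ETV4.

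The LSD1+8a knockdown and control cells were compared for LSD1 at day 0. The windows held 9 peaks in knockdown cells and 15 in control cells, so knockdown cells had 37.5% (18.8 to 59.4) of the peaks of both, against 37.8% over the whole lists. Of the knockdown peaks, 7 of 9 (77.8%, 40.0 to 97.2) were overlapped by a control peak, against 69.4% of the whole list. Of the control peaks, 7 of 15 (46.7%, 21.3 to 73.4) were overlapped by a knockdown peak, against 42.1% of the whole list. The difference in number was largest at DUSP6, with 1 knockdown peak and 5 control peaks. Of these control peaks, 3 lay in the same region as the knockdown peak, and the share above counts them as separate. In that region the knockdown peak had 73 tags and ranked 401 of 10248. The strongest control peak there had 65 tags and ranked 938 of 16882. SPRY4 had the opposite order, with 3 knockdown peaks and 2 control peaks. The extent of the knockdown cannot be read from these lists.

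**Figure D3:**
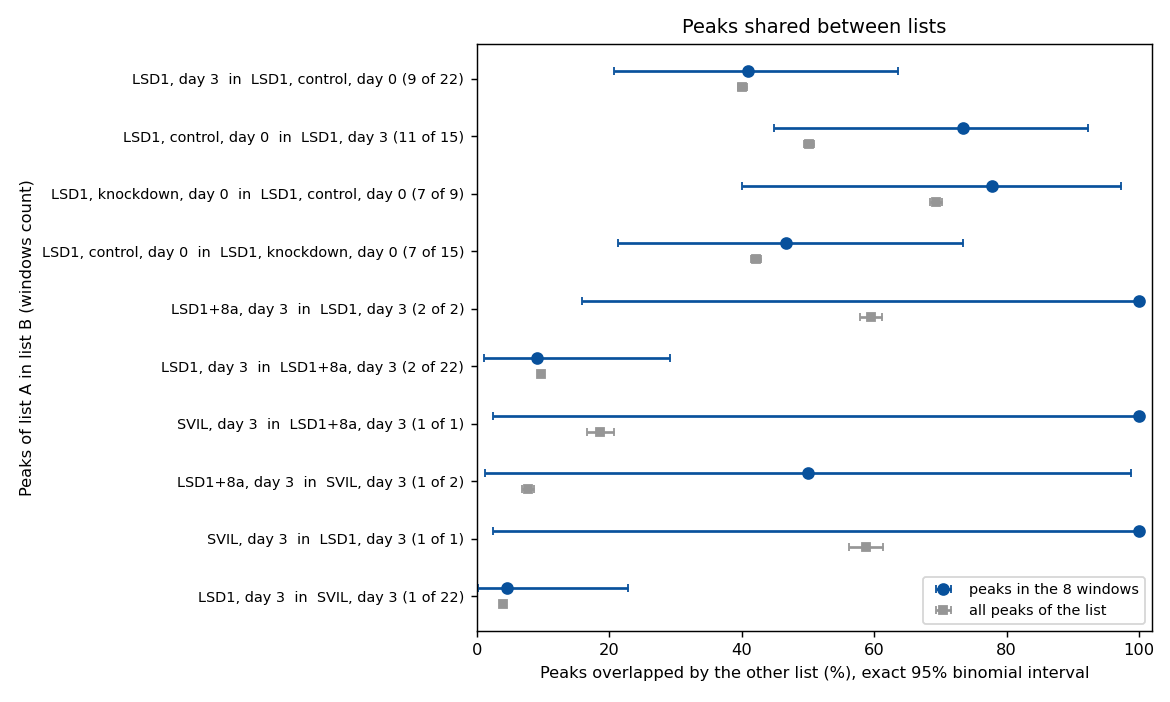
Percentage of peaks of a first list overlapped by a second list, for peaks in the 8 windows (circles) and for the whole list (squares), with exact 95% binomial intervals as bars. For the LSD1 lists the whole-list squares lie within the bars of the windows, which are wide, and the SVIL and LSD1+8a rows rest on 1 or 2 peaks.

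LSD1+8a and SVIL were set against LSD1 at day 3, and SVIL against LSD1+8a. Both LSD1+8a peaks (100%, 15.8 to 100) lay at LSD1 peaks, against 59.6% of the whole LSD1+8a list. Of the LSD1 peaks, 2 of 22 (9.09%, 1.12 to 29.2) lay at an LSD1+8a peak, against 9.69%. The SVIL peak at ETV5 lay at an LSD1+8a peak and at an LSD1 peak, which 18.6% and 58.7% of all SVIL peaks did. Of the LSD1+8a peaks, 1 of 2 lay at a SVIL peak, against 7.7%, and of the LSD1 peaks, 1 of 22 (4.55%, 0.115 to 22.8), against 3.97%. With 2 LSD1+8a peaks and 1 SVIL peak, the windows give little precision on these shares.

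Across the 27 regions, 13 were in 1 list (48.1%, 28.7 to 68.1), against 57.6% of the 32188 regions of the genome. LSD1 at day 3 alone accounted for 10 of these (37.04% of all 27, against 33.5%). Regions in all 3 LSD1 lists numbered 5 (18.5%, 6.30 to 38.1), against 11.5%, and lay at DUSP6, SPRY4, SPRED1 (1 each) and SPRED2 (2). Regions in 3 or more lists numbered 6 (22.2%, 8.62 to 42.3), against 15.7%. None of the 27 was in 4 or more lists, which by the limit of 3 counts of 27 allows a share of up to 11.1%, and 3.95% of the regions of the genome were.

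In length and tags the window peaks were near the middle of their lists. The median LSD1 peak of the windows was 1155 bp long with 51.5 tags at day 3, against list medians of 1044 bp and 50 tags. In knockdown cells it was 838 bp with 29 tags, against 769 bp and 28 tags, and in control cells at day 0 it was 876 bp with 27 tags, against 834.5 bp and 26 tags. Window peaks in the upper 50% of their list by score numbered 12 of 22 at day 3, 7 of 9 in knockdown cells and 8 of 15 in control cells at day 0. The best window peak stood in the top 9.24% of the list at day 3, the top 3.91% in knockdown cells and the top 5.56% in control cells at day 0. Some peaks lay just above the lowest score of 50.0, such as 50.64 for a DUSP6 peak of control cells at day 0 and 51.55 for a SPRY4 peak at day 3, so their presence in a list rests on its threshold.

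**Figure D4:**
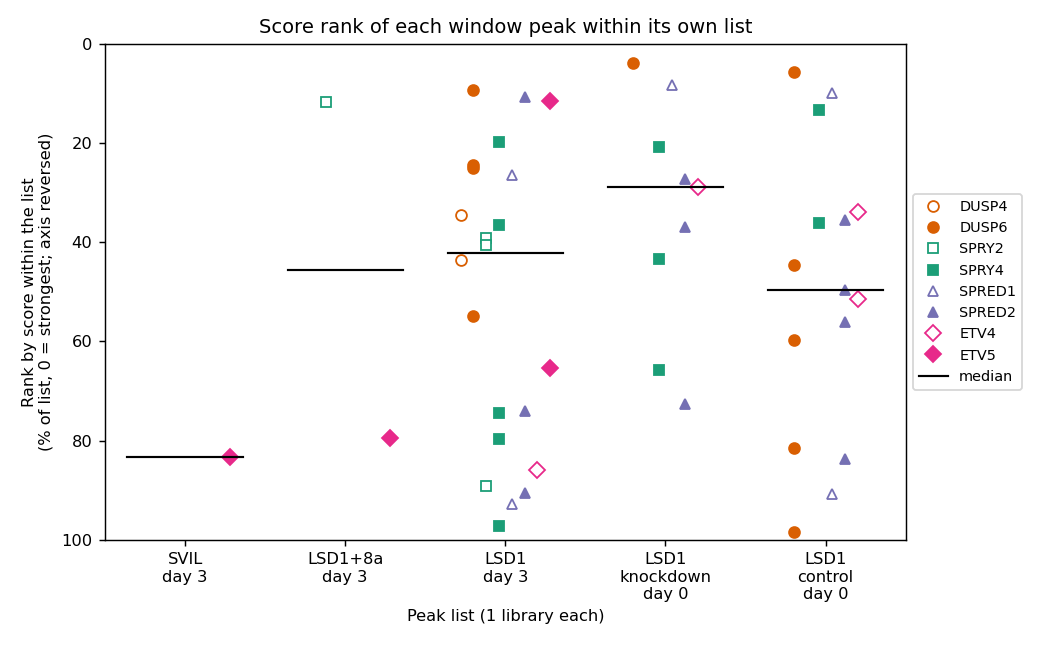
Rank by score of each window peak within its own list, as a percentage of the list with 0 for the strongest peak (axis reversed), by list and gene, with the median as a line. A DUSP6 peak is the best of the window peaks in both day 0 lists, at 3.91% in knockdown cells and 5.56% in control cells, and the overlapping day 3 peak stands at 25.1%. The best window peak of day 3, at 9.24%, is in another DUSP6 region, the SPRY2 peak stands at 11.7% of the LSD1+8a list, and the ETV5 peaks of LSD1+8a and SVIL stand at 79.5% and 83.3%.

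Some peaks lay close to the edges of the windows. Within 20 kb inside an edge lay 6 peaks, 3 at SPRY4, 1 at SPRED2 and 2 at ETV4, with 19 to 44 tags and folds of 7.43 to 28.41. Within 20 kb outside an edge lay 4 peaks, all of LSD1, with 2 at SPRY2 as given above and 2 at DUSP6. Those at DUSP6 had 94 tags at a fold of 22.98 at day 3 (89672316 to 89673715) and 22 tags at 11.63 in control cells at day 0 (89672449 to 89673253). By score, the outside day 3 peaks at SPRY2 (329.22) and DUSP6 (276.8) stood above the best window peak of day 3 (252.23). The SPRY2 fold of 40.91 was also above the highest fold in the windows (33.38). Which day 3 peak ranked highest therefore depends on the edges.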

How the data were processed

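ChIP-seq libraries of SH-SY5Y cells were analysed from 5 deposited peak lists, 1 per library. The submitters' processing notes name CASAVA, Bowtie 1.0.0 and the builds mm9 and hg19, and the lists were read as hg19 because they hold human chromosomes. No source used here names the peak caller or its threshold. Tags are the authors' whole-number count per peak, without normalization. Fold enrichment is the authors' ratio, and its denominator is unknown. The authors' score column has lost its header and has no unit. Positions, lengths and summit offsets are the deposited values in bp.

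Lists were matched to samples by title, with 1 sample per group. The windows, genes and comparisons were chosen with earlier results of these data known. A peak belonged to a window, and was shared between lists, by at least 1 bp of overlap; overlapping peaks of the 5 lists were merged into 32188 regions, and 20458 consecutive stretches gave the background. The rule for naming took each gene's highest ranking region in each list, regions in 3 or more lists, and all LSD1+8a and SVIL regions; the remaining regions were named after their values were seen. Distances to promoters and counts at other pathway genes were planned and not run, because no hg19 annotation was used here. Gene neighbours are from RefSeq GRCh38.p14 by order alone. Alternatives changed the overlap rule, the score threshold, the window edges and the merging. Python 3.11.15, pandas 2.3.3 and scipy 1.17.1 were used, and the overlap functions were tested on simulated data.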

Additional observations from a re-analysis of the deposited data

How the results depend on the processing

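With 1 library per list, depth unknown and few peaks per window, most values cannot be ranked between conditions. Of 110 values under alternative settings, 94 stayed within the interval of the main value or, for counts of genes or windows, within 1.5 times of it. The intervals are wide, and the changes of set at SPRY2 and ETV4 count among the 94. The tally therefore does not show that the LSD1 results are stable. It includes the share of each list in the windows, 0.0689% for SVIL, 0.0592% for LSD1+8a and 0.106% for LSD1 at day 3. At day 0 the LSD1 shares were 0.0878% in knockdown cells and 0.0889% in control cells. For scale, the windows span 1.19 Mb of the 3041 Mb up to the last peak of each chromosome. Settings with wider windows, and all settings for counts of genes or windows, were chosen after seeing the data. The 16 values outside these limits all concern LSD1+8a or SVIL, with 1 or 2 peaks. With each list limited to its upper 50% of scores, the SVIL share in the windows was 0% and SVIL was at 0 genes, since its peak ranked below the middle of the list. LSD1+8a was then at 1 gene, and also with the lowest SVIL score, 71.72, applied to every list. Under each of these thresholds the share of LSD1+8a peaks at LSD1 peaks was 0%, as was the reverse share, and LSD1+8a peaks at SVIL were 0%. SVIL peaks at LSD1+8a were 0% under the SVIL threshold, and LSD1 peaks at SVIL 0% in the upper 50%. With a reciprocal overlap of 50%, SVIL shared 0% with LSD1+8a and with LSD1, in both directions. The lengths fixed this outcome. The SVIL peak of 296 bp lies inside an LSD1+8a peak of 974 bp and an LSD1 peak of 2038 bp, and cannot cover 50% of either. The shares between the LSD1 lists ranged from 31.8% to 50.0% for day 3 peaks at day 0 peaks, 46.7% to 80.0% for the reverse, 57.1% to 77.8% for knockdown peaks at control peaks and 45.5% to 60% for the reverse. Of the SVIL shares, those in the upper 50% of the SVIL list could not be given, as no peak was left. Without replicates, leaving out a library was not possible. No paired analysis was possible because each group is 1 library.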
